A study of Mus musculus with 45 samples.

Results

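The comparison described here asks what interferon-gamma (IFN-γ) changed within 2 h in macrophages that also received interleukin-4 (IL-4). Bone marrow of C57BL/6 mice was grown in medium conditioned by L929 cells, and the macrophages were treated on the seventh day of differentiation. Both groups carried IL-4 at 10 ng/ml for 2 h, and 1 of them also received IFN-γ at 100 ng/ml. Each group held 3 poly(A) RNA libraries, so the comparison rests on 6 of the 45 libraries of the series. A table of CPM, read counts scaled to a common library total, covers 21 libraries in 7 groups of 3. One group was untreated, and the rest received IL-4, IFN-γ or the pair, each for 2 h and for 4 h. The untreated cells stand at 0 h, so changes against them also span the 2 h or 4 h in culture. A further 24 libraries were not analysed here. The labels name no edited or silenced gene for these 21 libraries. Of the 24421 genes in the table, 11380 reached 1 CPM in at least 3 of the 21 libraries and were tested, whatever their response. The labels do not say whether the replicates came from separate animals or cultures. P-values of the main test measure the spread left between these libraries once shifts shared by a replicate number are removed. That spread may be technical.

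IFN-γ binds a receptor of the chains Ifngr1 and Ifngr2, whose kinases Jak1 and Jak2 phosphorylate STAT proteins, and STAT dimers bind GAS elements with an inverted repeat around a 3-base spacer. IL-4 binds Il4ra with Il2rg or Il13ra1, and its factor STAT6 prefers the same half-sites around a 4-base spacer. The interferon regulatory factors (IRFs) that follow bind repeats of GAAA. In macrophages the first cytokine is the textbook inducer of classical, microbicidal activation and the second of alternative activation, marked by Arg1, Retnla, Chil3 and Mrc1. SOCS proteins, made early after either cytokine, block cytokine receptors and JAK kinases.

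The 250 bases before the start of 7 genes are shown as examples, 5 that were among the strong increases and 2 IL-4-induced genes that differed in direction. The 7 were picked by hand and all hold a match, so they do not stand for the genes that changed at large. They were read from RefSeq promoters of GRCm38.p6, 5′ to 3′ on the gene's strand. Capitals mark matches, on either strand, to TTC and GAA around any 3 bases (the GAS type) or any 4 bases (the 4-base spacer), or to GAAA repeated after any 2 bases (the IRF type). The regions are chr11:53769764-53770013 (Irf1, plus strand), chr11:117969367-117969616 (Socs3, minus), chr5:92348890-92349139 (Cxcl10, minus), chr3:142620413-142620662 (Gbp2, plus), chr3:142496684-142496933 (Gbp5, plus), chr19:29410669-29410918 (Pdcd1lg2, plus) and chr10:68723496-68723745 (Tmem26, plus). Starts are those of RefSeq, and GENCODE gene intervals, quoted further on, can begin elsewhere. The regions of Socs3 and Gbp5 lie inside the GENCODE interval of the gene, and those of Gbp2 and Tmem26 overlap its first bases, so matches there can fall within the gene by that annotation.
Irf1: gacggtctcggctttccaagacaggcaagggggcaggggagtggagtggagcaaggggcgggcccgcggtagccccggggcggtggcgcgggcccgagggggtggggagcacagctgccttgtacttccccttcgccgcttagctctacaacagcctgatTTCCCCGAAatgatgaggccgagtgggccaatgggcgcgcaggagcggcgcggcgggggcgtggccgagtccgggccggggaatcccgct
Socs3: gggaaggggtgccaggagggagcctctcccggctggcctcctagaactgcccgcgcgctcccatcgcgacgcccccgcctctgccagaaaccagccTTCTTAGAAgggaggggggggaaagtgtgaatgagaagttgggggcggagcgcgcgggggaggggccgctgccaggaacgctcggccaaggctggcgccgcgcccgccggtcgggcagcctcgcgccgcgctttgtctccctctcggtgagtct
Cxcl10: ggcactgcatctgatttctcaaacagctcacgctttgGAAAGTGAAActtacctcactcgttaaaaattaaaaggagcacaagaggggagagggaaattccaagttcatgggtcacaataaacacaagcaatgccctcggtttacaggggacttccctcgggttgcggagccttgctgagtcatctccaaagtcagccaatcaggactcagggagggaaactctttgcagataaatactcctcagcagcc
Gbp2: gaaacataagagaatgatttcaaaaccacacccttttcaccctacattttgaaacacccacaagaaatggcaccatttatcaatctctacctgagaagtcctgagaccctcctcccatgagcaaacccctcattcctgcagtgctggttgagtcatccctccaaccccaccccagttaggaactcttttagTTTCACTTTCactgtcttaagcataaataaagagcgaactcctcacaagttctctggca
Gbp5: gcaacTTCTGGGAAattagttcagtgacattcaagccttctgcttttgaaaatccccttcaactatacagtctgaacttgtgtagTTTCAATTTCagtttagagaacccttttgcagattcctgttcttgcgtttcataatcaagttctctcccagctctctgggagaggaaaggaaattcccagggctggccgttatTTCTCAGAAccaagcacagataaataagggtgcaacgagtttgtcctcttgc
Pdcd1lg2: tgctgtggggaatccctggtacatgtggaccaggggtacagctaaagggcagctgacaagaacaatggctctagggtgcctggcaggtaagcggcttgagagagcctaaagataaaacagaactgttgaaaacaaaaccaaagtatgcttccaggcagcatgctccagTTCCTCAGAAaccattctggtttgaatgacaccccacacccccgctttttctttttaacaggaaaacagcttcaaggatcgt
Tmem26: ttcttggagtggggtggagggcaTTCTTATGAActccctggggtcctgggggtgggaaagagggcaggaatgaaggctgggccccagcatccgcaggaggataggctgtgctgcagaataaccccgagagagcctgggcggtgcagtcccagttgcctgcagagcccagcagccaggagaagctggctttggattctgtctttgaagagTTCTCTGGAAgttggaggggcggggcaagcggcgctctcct
Irf1 and Socs3 each held 1 GAS-type match, at -90 to -82 and at -154 to -146 from the RefSeq start. Gbp5 held 2 GAS-type matches and 1 IRF-type match, while Cxcl10 and Gbp2 held 1 IRF-type match each. Pdcd1lg2 and Tmem26 held the 4-base spacer, once and 2 times. The 4-base spacer was also held by Fam26f, at 17 from the start, and by Ifi205, at -231, both among the large increases. A RefSeq promoter, 300 bases long with 50 after the start, was matched by symbol for 9220 of the 11380 genes tested. The GAS type was in 7.03% of those promoters, in 10.1% of the 1508 promoters of genes that rose and in 5.49% of the 1548 of genes that fell. For the IRF type the shares were 3.41%, 7.76% and 1.42% in that order, and for the 4-base spacer 5.50%, 6.50% and 5.49%. Over all 32851 promoters of the table the 3 types stood at 8.30%, 3.44% and 6.95%. The motifs can overlap, a match describes letters and not binding, and none of these shares was tested.

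The 6 libraries held 38347208 to 45129239 reads. The untreated replicates 2 and 3 stood apart, with 43.2% and 15.7% of their CPM on the ribosomal RNA gene Rn45s, against 0.0662% to 1.20% in the 6 libraries. Values are therefore given as rescaled CPM, each library divided by its median ratio to the other libraries, and log2 changes are on the log2(rescaled CPM + 1) scale, which understates changes of low genes. Under this scaling the median over all genes of the log2 change stood at -0.01, and under the deposited scaling it was -0.11. All 17 macrophage markers, among them Csf1r, Adgre1 and Cd68, averaged at least 1 rescaled CPM, and their sum ran from 25778 to 44106 with IL-4 and from 25814 to 44696 with both cytokines. Markers of neutrophils summed to 79.7 to 178 and 81.5 to 248 in those groups. T cell markers summed to 4.20 to 23.1 and 8.61 to 30.5, and those of B cells to 3.54 to 4.24 and 6.31 to 8.79. Of these, Ngp, Lck and Cd79b, and the dendritic cell marker Clec9a, were called higher with IFN-γ, and the part of such cells in the results was not tested. The call of Ngp was lost in 9 of 18 alternatives, and those of Lck, Cd79b and Clec9a in 0. Fibroblast markers summed to 6.83 to 17.2 and 10.3 to 13.9, and no natural killer, mast cell or erythroid marker averaged 1 rescaled CPM, with Pax5, Gzma, Mcpt4 and Hbb-bs among those at 0.

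IFN-γ added to IL-4 changed the RNA level of 3777 genes at 2 h (33.2% of those tested), and large changes were mostly increases. By limma with Benjamini-Hochberg adjustment over all 11380 genes, 1883 genes (16.5%) rose and 1894 (16.6%) fell at an adjusted p under 0.05. A log2 change of at least 1 was reached by 487 genes that rose (4.28%) and 163 that fell (1.43%). At 2 or more there were 131 (1.15%) against 9 (0.0791%), and at 3 or more 41 against 0. Below, a gene passes, rises or falls by this limma test unless another is named. The 3 libraries of one group lay fully above the other for 1568 genes (13.8%) and fully below for 1452 (12.8%). In bulk RNA, fewer cells of a type and less RNA per cell cannot be told apart. The counts of calls depend on the pairing by replicate number and on the scaling: without the replicate block 997 genes rose and 677 fell, and with deposited CPM 924 and 977. Without replicate 3 of every group 1157 genes rose and 886 fell, and without replicate 1 there were 1334 and 1210.

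**Figure D1:**
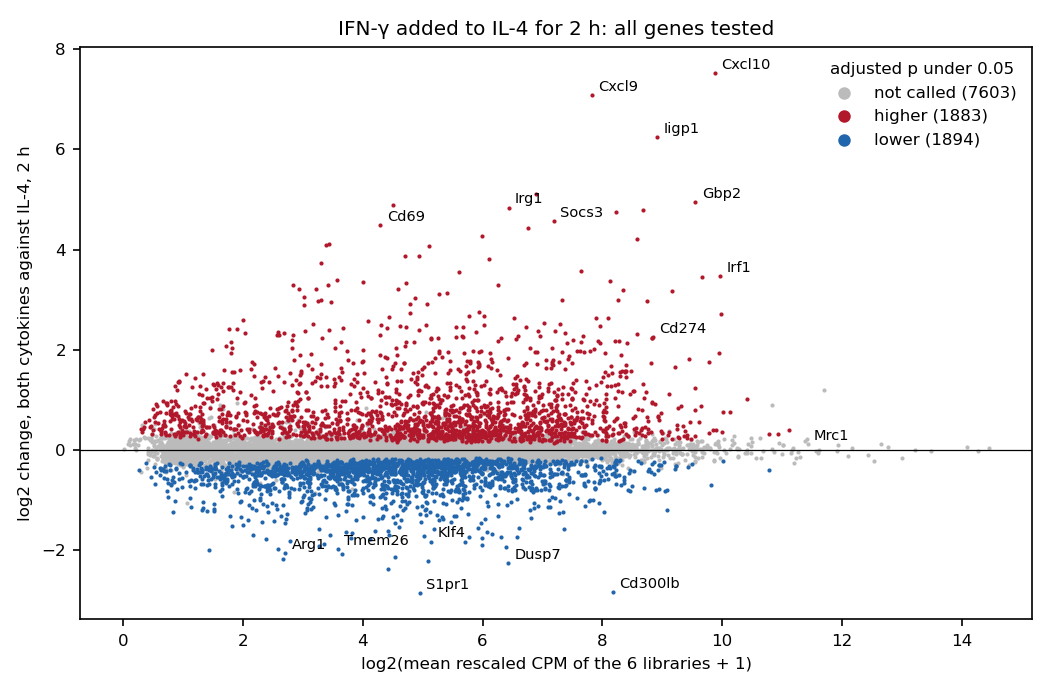
Log2 change of both cytokines against IL-4 at 2 h (y axis) against the mean level of the 6 libraries (x axis, log2 of rescaled CPM + 1) for the 11380 genes tested, coloured by call. Increases reached 7.52 (Cxcl10) while the largest decrease was -2.85 (S1pr1).

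On the log2(rescaled CPM + 1) scale the 2 largest increases were Cxcl10 and Cxcl9, ligands of the receptor CXCR3 that draw T cells to inflamed tissue. Cxcl10, at chr5:92346638-92348889, measured 9.92, 10.1 and 7.69 rescaled CPM in IL-4 replicates 1 to 3 and 2136, 1783 and 1721 with both cytokines. Its mean rose 203-fold (log2 change 7.52 ± 0.25 SE, limma adjusted p = 2.37e-12), every library with IFN-γ lying far above every library without. Cxcl9, beside it at chr5:92321347-92328079, went from 2.00, 0.87 and 4.41 to 578, 254 and 515 (log2 change 7.09 ± 0.32 SE). Replicate 2 was the lowest library of each group for Cxcl9, and the groups did not overlap. Of the 15 CXCR3 ligands and CC chemokines tested, 8 rose and 0 fell, against 16.5% and 16.6% of all genes, with a median log2 change of 1.02 against -0.01. Ccl8 rose from a mean of 6.69 ± 3.21 (SD, n = 3) to 40.7 ± 15.9 rescaled CPM. Ccl12 rose 6.08-fold, whereas Ccl6 and Ccl9, abundant CC chemokines of resting macrophages, changed by -0.12 ± 0.08 and -0.28 ± 0.11 SE and did not pass the test. Without replicate 2 both passed as lower (-0.22, limma adjusted p = 0.049, and -0.41, 0.0025), as did Ccl9 by DESeq2 (-0.29, adjusted p = 0.041). CC chemokine genes have close paralogs, so reads may be split between them.

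Guanylate-binding proteins (GBPs) and immunity-related GTPases, which attack the vacuoles of intracellular microbes, moved together. Of 19 tested members 18 rose and 0 fell, against 16.5% and 16.6% of all genes, with a median log2 change of 3.36. In all 19 the libraries with IFN-γ lay above those without (13.8% of all genes did so). Gbp2, at chr3:142620602-142638008, measured 78.4, 40.5 and 29.2 with IL-4 and 1557, 1096 and 1703 with both cytokines (log2 change 4.95 ± 0.31 SE, limma adjusted p = 2.68e-09). Iigp1 rose 80.3-fold, from 11.8 ± 4.78 to 951 ± 268 rescaled CPM (SD, n = 3). Gbp5, a promoter of inflammasome assembly, rose 28.0-fold, Gbp3 12.1-fold and Tgtp2 20.9-fold. Gbp10, the member that limma did not call, was at 0 to 0.121 rescaled CPM in the 6 libraries, and edgeR (adjusted p = 0.0060) and DESeq2 (0.016) on recovered reads called it higher. These families hold near-identical copies, so the split of reads among members is uncertain.

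Both chains of the IFN-γ receptor fell and most STAT genes rose. Ifngr1 went from 199, 124 and 193 to 138, 69.1 and 112 rescaled CPM (log2 change -0.71 ± 0.08 SE) and Ifngr2 from 194, 127 and 200.03 to 119, 70.3 and 109.6 (-0.80 ± 0.07 SE). Both were lower in 3 of 3 pairs, and their groups overlapped for Ifngr1 but not for Ifngr2. Neither call held without the replicate block (limma adjusted p = 0.21 and 0.055). In the list of 6 receptor and signal genes those were the 2 that fell, while 3 rose, against 16.6% and 16.5% of all genes. Without the block 0 of the 6 fell and 2 rose. Jak2 did not pass the main test (0.13 ± 0.09 SE). Of the 7 STAT genes 6 rose and 0 fell, against 16.5% and 16.6% of all genes, and 4 rose without the replicate block. Among the 6 were Stat3 (2.34-fold), Stat5a (2.18-fold) and Stat5b (2.35-fold). Stat6, the IL-4 factor, was the exception at 201 ± 11.8 and 183 ± 10.8 rescaled CPM (SD, n = 3), with no overlap of the groups. It passed as lower with deposited CPM and no untreated libraries (log2 change -0.24, limma adjusted p = 0.012).

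Irf1, a factor that switches on interferon genes, lies at chr11:53770014-53778374. It measured 197, 133 and 164 rescaled CPM with IL-4 and 2116, 1418 and 1992 with both cytokines, 11.2-fold higher (log2 change 3.47 ± 0.11 SE, limma adjusted p = 8.56e-13). Replicate 2 was the lowest in both groups, which were far apart. Irf8, the myeloid partner of Irf1, rose 2.96-fold and Irf7, the amplifier of type I interferon, 2.42-fold. Irf5 and Irf4, the IRF linked to alternative activation, did not pass the test, Irf4 standing at 47.0, 49.1 and 54.9 with IL-4 and at 57.3, 41.8 and 56.6 with both. In all, 5 of 8 IRF genes rose and 0 fell, against 16.5% and 16.6% of all genes (3 and 0 without the replicate block or with deposited CPM). Among 21 AP-1, BATF, C/EBP and KLF factors 7 rose and 3 fell, against 16.5% and 16.6% of all genes, and 1 fell without the block or with deposited CPM. Batf2 rose 23.8-fold, Jun, an AP-1 subunit, 4.41-fold and Atf3, a stress-induced repressor, 4.41-fold, while Klf4 fell. Of 12 NF-κB subunits and inhibitors 4 rose and 0 fell, against 16.5% and 16.6% of all genes, and 2 rose without the block. Bcl3 (2.97-fold), Tnfaip3 (2.72-fold) and Nfkbiz (3.29-fold) led, and the subunits Nfkb1 (0.01 ± 0.11 SE) and Rela (-0.16 ± 0.12 SE) did not pass. The call of Tnfaip3 was lost without the replicate block (limma adjusted p = 0.16).

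The feedback inhibitors divided by member. Socs3, a suppressor of STAT3 signalling at chr11:117966079-117970047, went from 11.8, 7.28 and 14.03 to 338, 248 and 249.6 rescaled CPM (log2 change 4.57 ± 0.27 SE, limma adjusted p = 1.45e-09), with no overlap. Socs2, a suppressor that IL-4 had raised, went from 32.3, 21.1 and 27.1 to 10.3, 6.11 and 8.04 (-1.61 ± 0.13 SE), again with no overlap and all 3 pairs lower. Socs1, the main brake on both cytokines, stood at 119, 74.6 and 64.8 with IL-4 and at 138, 156 and 147 with both (0.81 ± 0.19 SE), so the libraries with IFN-γ were higher and closer together than those without. Cish rose 1.78-fold and Socs5 fell to 50.7% of its IL-4 mean. The call of Socs1 was lost without replicate 3 (log2 change 0.63, limma adjusted p = 0.12). That of Cish was lost without replicate 1 (0.71, adjusted p = 0.057), without replicate 3 (0.78, adjusted p = 0.10) and without the replicate block (adjusted p = 0.17). Of the 9 genes of the IL-4 receptor and signal, 5 rose and 0 fell, against 16.5% and 16.6% of all genes, and 3 rose without the block and 2 with deposited CPM. Il4ra, the ligand-binding chain, went from 902, 797 and 1002 to 2059, 1339 and 2135, without overlap.

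**Figure D2:**
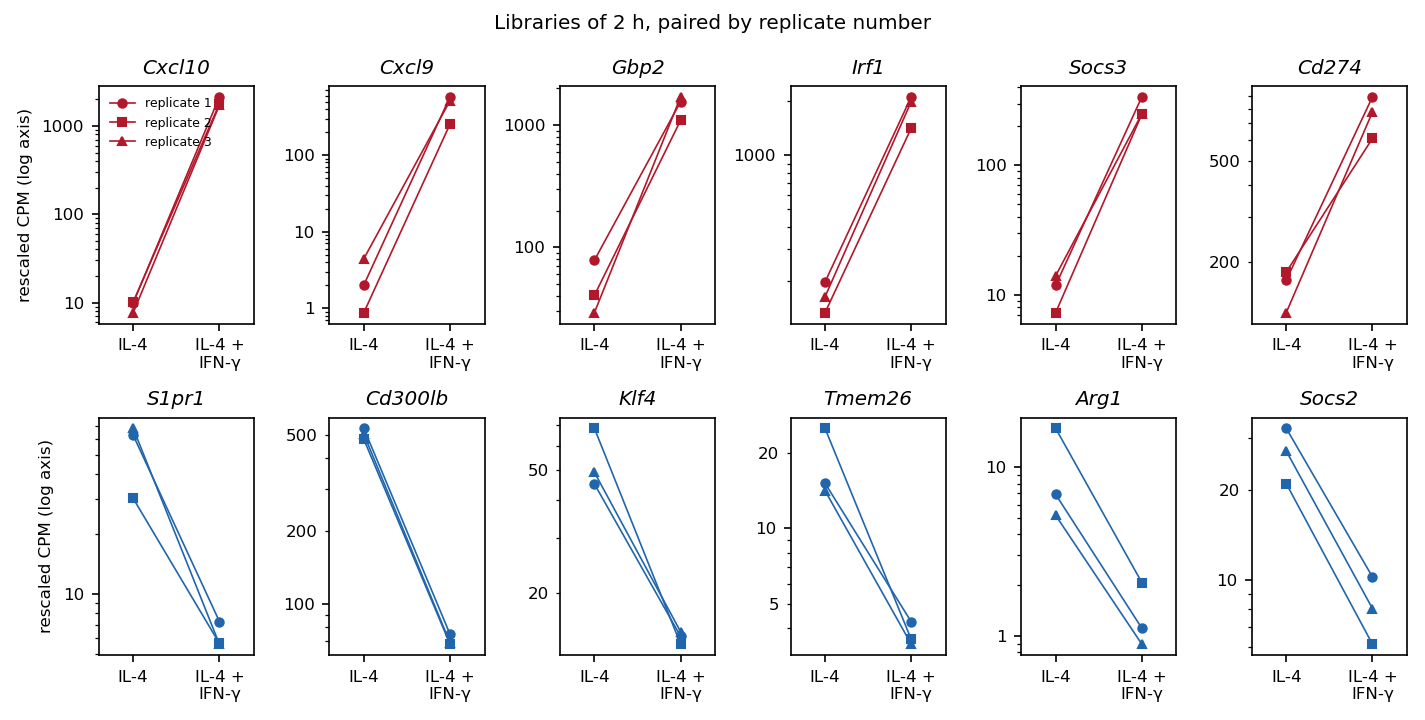
Rescaled CPM (log axis, scaled for each gene) of 12 genes in the 3 IL-4 libraries and the 3 libraries with both cytokines at 2 h, lines joining libraries of the same replicate number. The 6 genes above rose and the 6 below fell in all 3 pairs, and no gene's groups overlap.

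Genes of classical activation rose in 19 of 24 cases and fell in 0, against 16.5% and 16.6% of all genes, with a median log2 change of 1.21. Irg1, which makes itaconate, rose 34.8-fold, Slamf8, a regulator of reactive oxygen, 8.996-fold, and Fcgr4, an activating IgG receptor, 5.46-fold. Casp4, the caspase that senses cytosolic lipopolysaccharide, rose 5.55-fold. Tnf, the inflammatory cytokine, went from 1.66, 1.34 and 1.53 to 19.7, 7.22 and 11.7 rescaled CPM. Nos2, which makes nitric oxide, stayed under 1.20 rescaled CPM in every library. Its call (0.73 ± 0.22 SE) was lost without replicate 1 (log2 change 0.61, limma adjusted p = 0.077), without replicate 3 (0.71, 0.15), without the third library of both cytokines (0.68, 0.054), without the first IL-4 library (0.57, 0.094) and without the block (0.11). The costimulatory ligand Cd86 (0.32 ± 0.12 SE) and the receptor Tlr2 (-0.18 ± 0.21 SE) did not pass, though Cd86 passed by edgeR (adjusted p = 0.041), by DESeq2 (0.044), without the untreated libraries (0.043) and in the 6 libraries alone (0.011). Of 26 genes of pattern recognition and the inflammasome 12 rose and 3 fell, against 16.5% and 16.6% of all genes, and 8 and 0 without the block. Tlr3, a sensor of double-stranded RNA, rose 6.89-fold and Nod1, a sensor of peptidoglycan, 6.04-fold.

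Antiviral genes known from type I interferon rose in 36 of 37 cases, against 16.5% of all genes, with a median log2 change of 1.57. Without the replicate block 21 of them were called. Trim21, an antibody receptor of the cytosol, went from 55.5 ± 19.3 to 275 ± 37.4 rescaled CPM (SD, n = 3), Pml rose 4.96-fold, Zbp1 4.18-fold and Ifit2 3.89-fold. Bst2, which tethers virus particles, was the one that did not pass (0.21 ± 0.12 SE), and it passed without replicate 2 (0.37, limma adjusted p = 0.0040) and without the second IL-4 library (0.35, 0.047). In the antigen presentation genes, class I processing moved and class II hardly did. Of 19 genes of class I and antigen processing 14 rose and 0 fell, against 16.5% and 16.6% of all genes. Without the block 13 rose, and with deposited CPM 11. The 14 included the peptide transporter Tap1 (4.32-fold), the transactivator Nlrc5 (3.92-fold) and the immunoproteasome subunit Psmb9 (2.46-fold). The heavy chains H2-K1 (0.22 ± 0.12 SE) and H2-D1 (0.12 ± 0.10 SE) did not pass. Of 8 class II genes 3 were called higher, against 16.5% of all genes: Ciita, their transactivator (1.51-fold), H2-Aa (1.41-fold) and H2-DMa (1.26-fold). Of the 8, 0 were called either with deposited CPM or without the block. Without replicate 1 the changes of those 3 were 0.41, 0.20 and 0.25 (limma adjusted p = 0.056, 0.37 and 0.11), and without replicate 3 that of Ciita was 0.47 (0.091). H2-Aa was also lost without the first (0.29, adjusted p = 0.13) or second (0.35, 0.079) library of both cytokines and without the first IL-4 library (0.26, 0.16).

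Cd274 encodes PD-L1, a ligand of the T cell inhibitor PD-1, and lies at chr19:29367455-29388095. It went from 169, 182 and 126 to 892, 611 and 777 rescaled CPM (4.78-fold, log2 change 2.25 ± 0.22 SE), with no overlap. Pdcd1lg2, the second ligand (PD-L2) and an IL-4-induced gene of the same chromosome, went from 28.2, 19.3 and 27.8 to 55.7, 34.4 and 50.3 (0.86 ± 0.21 SE). The groups did not overlap for either ligand, but the call of Pdcd1lg2 was lost without replicate 3 (0.88, limma adjusted p = 0.082) and without the replicate block (0.079). Further large increases were Serpina3f (38.4-fold) and Serpina3g (26.9-fold), protease inhibitors with near-identical neighbours, Fam26f (22.4-fold), Cd69, an early activation antigen (61.3-fold), Sectm1a (105-fold), Tagap (15.8-fold) and Gpr18 (58.0-fold). Over the alternatives the log2 change ran from 4.02 to 6.71 for Sectm1a, 3.49 to 5.86 for Gpr18 and 4.20 to 5.92 for Cd69. The folds of these genes are thus imprecise. Selp, the adhesion molecule P-selectin, was at 0.0681, 0.106 and 0.0707 rescaled CPM with IL-4 and at 24.9, 9.69 and 22.1 with both cytokines. Ifi205, a sensor of the Ifi200 family, rose from 3.10 ± 2.18 to 56.6 ± 24.7 (SD, n = 3).

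Genes that IL-4 had switched on were called in both directions, more of them lower than higher. The 397 genes raised by IL-4 at 4 h over untreated cells (limma adjusted p under 0.05, log2 change of at least 1) were chosen by a contrast of other libraries than those compared at 2 h. The estimate of spread per gene comes from all 21 libraries in both tests. The choice can therefore raise the share of the set that is called, by an amount that was not tested. The same holds for the other sets below. When IFN-γ was added, 163 of them (41.1%) were lower at 2 h, against 16.6% of all genes tested, and 89 (22.4%) were higher, against 16.5%. Their median log2 change was -0.17. A part of this set, 84 genes, had also been raised by IFN-γ alone, a comparison that shares the untreated libraries with the choice of the set. Of those 84, 63 were higher and 2 lower, whereas of the 302 in neither IFN-γ set 26 (8.61%) were higher and 151 (50%) lower. Without the replicate block 77 of 370 IL-4-raised genes were lower and 47 higher, and with deposited CPM 234 and 135 of 1057.

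Arg1, the arginase that defines alternative activation, lies at chr10:24915221-24927484 and went from 6.90, 17.0 and 5.19 to 1.11, 2.07 and 0.894 rescaled CPM (log2 change -2.05 ± 0.40 SE, limma adjusted p = 6.38e-04). Replicate 2 was the highest in both groups, and the groups did not overlap. Klf4, a zinc finger factor of the IL-4 response, went from 45.1, 68.3 and 49.2 to 14.4, 13.6 and 15.0 (-1.82 ± 0.22 SE). Tmem26 went from 15.2, 25.1 and 14.2 to 4.23, 3.60 and 3.44 (-1.97 ± 0.13 SE), without overlap. Ppargc1b, a coactivator of mitochondrial metabolism, fell to 22.4% of its IL-4 mean, Ptgir, the prostacyclin receptor, to 20.3%, Pxdc1 to 11.4% and Rasgrp1, a Ras activator, to 36.7%. Retnla, a secreted protein and marker of IL-4, had 70, 67 and 62 reads in the IL-4 libraries and 6, 0 and 1 with both cytokines, in libraries of similar depth.

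Other IL-4-raised genes did not pass the test or rose. Mrc1, the mannose receptor, measured 2799.7, 2193 and 2896 rescaled CPM with IL-4 and 3195, 2257 and 3171 with both (0.12 ± 0.13 SE), with overlapping groups. Dab2 (0.10 ± 0.13 SE), Atp6v1b2 (-0.03 ± 0.10 SE), Atp6v0a1 (0.13 ± 0.12 SE), Chil3 (0.18 ± 0.16 SE) and the factor Egr2 (0.50 ± 0.46 SE) did not pass the test either. Chil3 was raised by IL-4 at 4 h, and Egr2 passed as higher without replicate 2 (0.82, limma adjusted p = 4.50e-04). Gja1, the gap junction protein connexin 43, rose 10.1-fold, and Gbp7, Ifi47 and Ccl12 also stand in the IL-4-raised set. Over the 34 genes of the alternative activation list, 10 rose and 11 fell, against 16.5% and 16.6% of all genes, and 5 and 7 without the replicate block.

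**Figure D3:**
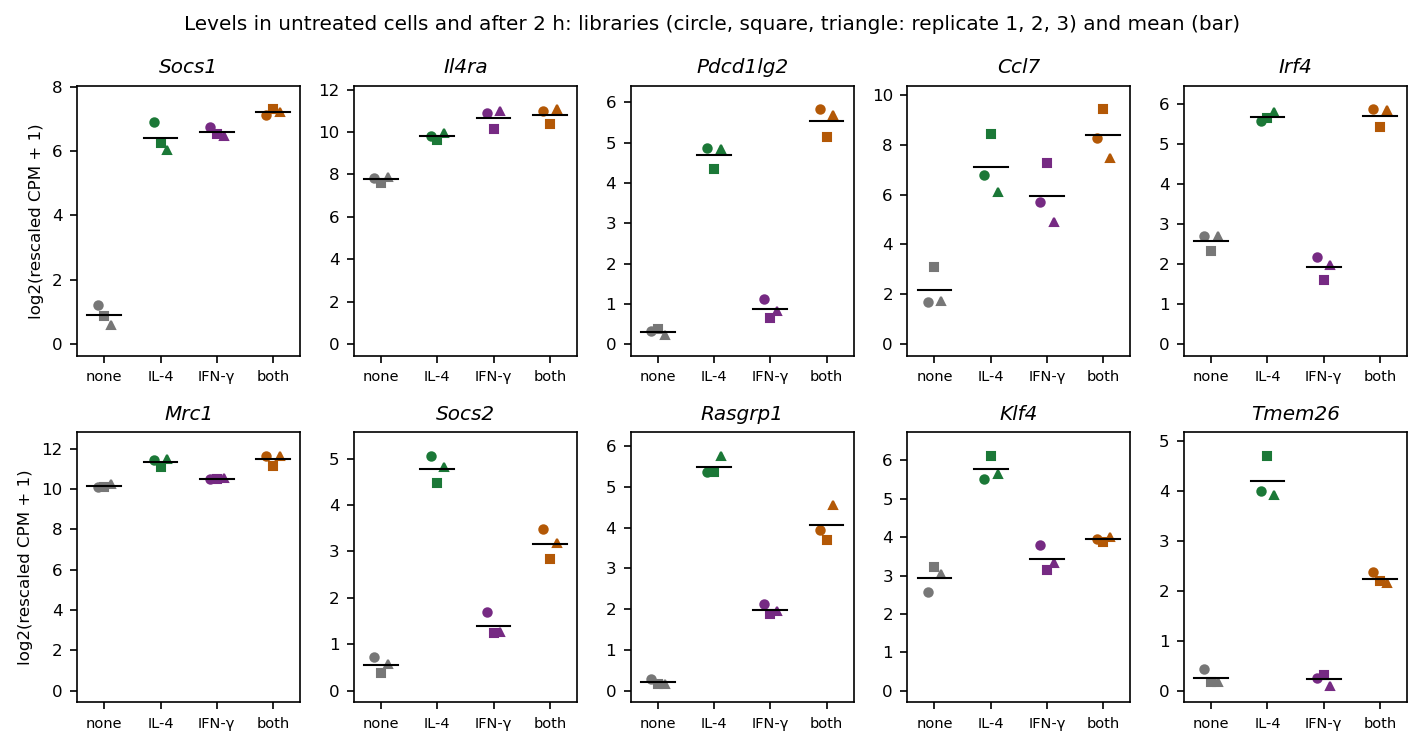
Levels (log2 of rescaled CPM + 1) of 10 genes in untreated cells and after 2 h with IL-4, IFN-γ or both, each point a library and each bar the mean of 3. Pdcd1lg2, Irf4 and Mrc1 with both cytokines stood at or above their IL-4 level, while Socs2, Rasgrp1, Klf4 and Tmem26 lay between the IL-4 level and the untreated level.

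Genes that IL-4 lowered at 4 h were called in both directions, 89 of 425 (20.9%) higher and 112 (26.4%) lower. The shares over all genes tested were 16.5% and 16.6%. All 39 of them that IFN-γ alone raised were higher with both cytokines, and 77 of the 103 that IFN-γ alone lowered were lower. Here too the choices by IL-4 and by IFN-γ alone share the untreated libraries. Ccr1, a receptor of CC chemokines, went from 4.09, 11.1 and 3.72 to 57.2, 161 and 49.97 rescaled CPM (3.56 ± 0.18 SE), and its untreated libraries measured 8.41, 20.2 and 10.7. Kcnj2, a potassium channel, went from 4.77, 5.24 and 7.10 to 32.6, 38.4 and 33.7, below its untreated 76.0, 55.8 and 57.7. Rnd3 rose 8.71-fold and Prr5l 7.03-fold.

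The decreases were led by receptors. S1pr1, the sphingosine 1-phosphate receptor that guides cell exit from tissue, lies at chr3:115710433-115715072 and went from 62.7, 30.2 and 67.9 to 7.28, 5.65 and 5.60 rescaled CPM (log2 change -2.85 ± 0.28 SE, limma adjusted p = 5.76e-07). Cd300lb, an activating immune receptor at chr11:114922781-114934386, went from 533, 481 and 504 to 74.8, 68.0 and 68.8 (-2.83 ± 0.22 SE). Both sets of libraries were widely separated, and for Cd300lb the 3 replicates of a group lay close together. Gpr183, a receptor for oxysterols, fell to 27.6% and Gpr65, an acid sensor, to 25.8% of the IL-4 mean. Over 12 chemokine and chemoattractant receptors 4 rose, among them Ccr1, and 5 fell, against 16.5% and 16.6% of all genes, with a median log2 change of -0.04. Lower factors and signalling genes included Bhlhe41, a repressor (16.9%), Ets1 (19.2%), Dusp7, a phosphatase of ERK (20.4%), Ptpre, a tyrosine phosphatase (26.5%), Fgd3, an activator of Cdc42 (19.8%), and the transporter Slco4a1 (21.05%). Of the 22 dual-specificity phosphatases and immediate-early genes 12 fell and 6 rose, against 16.6% and 16.5% of all genes, with a median log2 change of -0.53. Btg1, an antiproliferative gene, rose 3.99-fold, Dusp16 3.54-fold and Zfp36, which degrades inflammatory mRNA, 3.41-fold.

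Small decreases were spread over growth and sterol genes. In the MYC network and ribosome biogenesis list 18 of 35 genes fell and 5 rose, against 16.6% and 16.5% of all genes (median log2 change -0.22), and 3 fell without the replicate block and 4 with deposited CPM. The largest was Mnt, a repressor that competes with MYC, at 36.8% of its IL-4 mean, while Max, the partner of MYC, rose 1.77-fold. Myc itself changed by -0.41 ± 0.13 SE, a call lost without replicate 1 (-0.41, limma adjusted p = 0.12), without replicate 2 (-0.24, 0.087) without the first or second library of either group, with deposited CPM and without the block (8 alternatives in all). Of 19 genes of cholesterol synthesis and efflux 8 fell, against 16.6% of all genes, led by Mylip, which degrades the LDL receptor (37.1%), and Ch25h, which makes an oxysterol, rose 3.11-fold. Without the block 1 of the 19 fell, and with deposited CPM 2 did. Of 17 glycolysis genes 5 rose and 0 fell, against 16.5% and 16.6% of all genes, and 1 rose without the block and 3 with deposited CPM. Hk1, a hexokinase, rose 1.84-fold, and the enzymes Ldha (0.01 ± 0.08 SE) and Aldoa (-0.08 ± 0.08 SE) did not pass. Of the 17 macrophage identity genes 2 rose, Csf2rb and Fcgr3, and 2 fell, when 33.2% of all genes were called, and 0 fell without the block. The call of Maf, one of the lower ones, was lost in 7 of 18 alternatives.

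**Figure D4:**
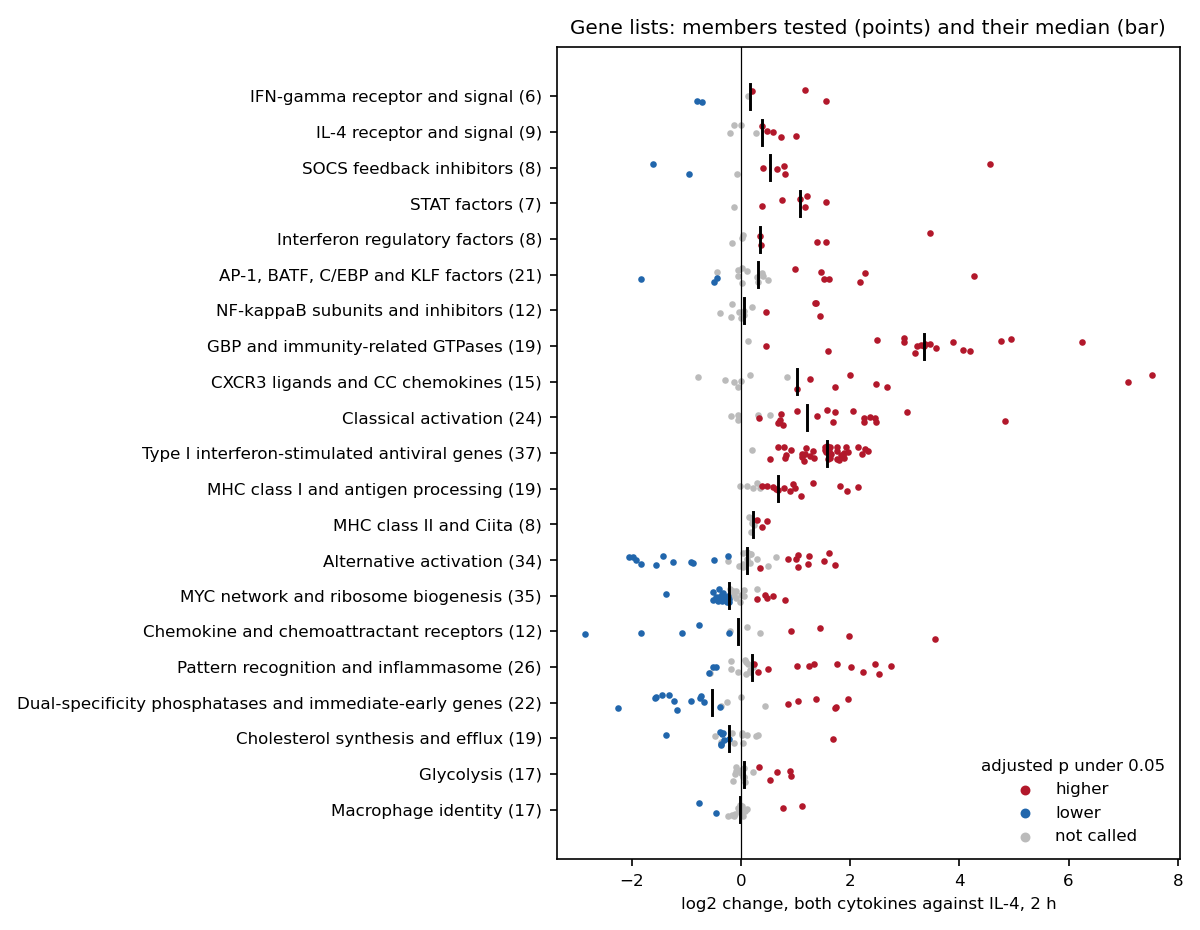
Log2 change at 2 h of the tested members of 21 gene lists (points, coloured by call, number of members in parentheses) and each list's median (bar). Medians ran from -0.53 (dual-specificity phosphatases and immediate-early genes) to 3.36 (GBPs and immunity-related GTPases).

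The same comparison at 4 h, in 6 other libraries, called 2972 genes higher (26.1%) and 3405 lower (29.9%), 56.0% in all. Of the 1883 genes that had risen at 2 h 1572 were also higher at 4 h, 83.5% of the 2 h calls and 52.9% of the 4 h calls, and 36 were lower. Of the 1894 that had fallen 1381 were also lower (72.9% and 40.6%) and 86 were higher. The difference of the 2 changes was tested by itself: it was positive for 1304 genes (11.5%) and negative for 1210 (10.6%). Without the replicate block these counts were 223 and 107, and with deposited CPM 282 and 244. Leaving out replicate 3 gave 368 and 195, and leaving out replicate 1 gave 631 and 326.

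The change was larger at 4 h than at 2 h for 13 of the 19 GBP and GTPase genes, 14 of the 19 class I genes and 18 of the 37 antiviral genes, and smaller for 0 in each list. Over all genes tested the difference was positive for 11.5% and negative for 10.6%. At 2 h Gbp4 measured 2.20, 2.12 and 1.20 rescaled CPM with IL-4 and 24.7, 24.2 and 35.6 with both. At 4 h it measured 2.55, 2.85 and 1.86 with IL-4 and 304, 239 and 344 with both (4 h minus 2 h 3.08 ± 0.31 SE, limma adjusted p = 4.81e-06). Il12rb1, a chain of the IL-12 receptor, went from a mean of 0.652 to 1.68 at 2 h and from 0.653 to 30.6 at 4 h (3.54 ± 0.17 SE). Clic5, a chloride channel protein, was not called at 2 h, at 0.522, 0.488 and 0.66 with IL-4 and 0.591, 0.603 and 0.719 with both. At 4 h it was at 0.765, 0.362 and 0.567 with IL-4 and 19.1, 16.1 and 25.6 with both (3.67 ± 0.16 SE). The 4 h libraries with both cytokines were thus the high ones. Ciita had means of 7.86 and 11.9 at 2 h and of 8.58 and 55.9 at 4 h (2.11 ± 0.16 SE), a difference not called without the block (limma adjusted p = 0.24).

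Some changes were early only or reversed. Plau, the urokinase protease, was lower at 2 h (121, 184 and 134 against 40.1, 50.4 and 38.1) and at 4 h measured 95.6, 136 and 57.3 against 183, 227 and 128 (difference 2.67 ± 0.31 SE). Ahr, the aryl hydrocarbon receptor, was higher at 2 h in 3 of 3 pairs with overlapping groups (118, 50.9 and 88.3 against 187, 87.5 and 155), a call lost without the replicate block (limma adjusted p = 0.19). At 4 h it was lower (105, 56.8 and 66.1 against 44.2, 24.9 and 27.7, difference -1.95 ± 0.19 SE). Kcnj2 changed by 2.43 at 2 h and by 0.47 at 4 h. The early regulators Irf1 (0.26 ± 0.15 SE) and Socs3 (-0.24 ± 0.38 SE) showed no called difference between the times. For Arg1 the difference was 0.59 ± 0.57 SE. Retnla had a called difference of -3.21 ± 0.13 SE on the log2(rescaled CPM + 1) scale. As a ratio on recovered reads it was -0.62 by edgeR (adjusted p = 0.62) and -0.53 by DESeq2 (0.58), its means going from 1.49 to 0.0545 rescaled CPM at 2 h and from 43.8 to 1.06 at 4 h.

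**Figure D5:**
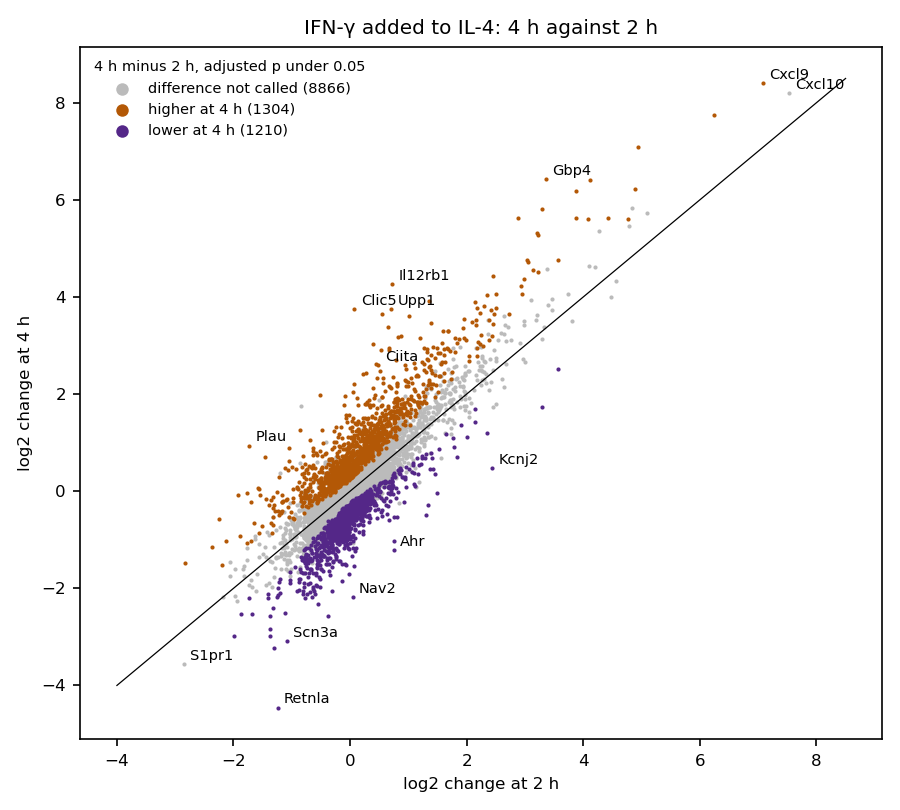
Log2 change of both cytokines against IL-4 at 4 h (y axis) against that at 2 h (x axis) for 11380 genes, coloured by the tested difference (1304 higher and 1210 lower at 4 h), with the line of equal change. Clic5 and Il12rb1 lie far above the line, and Ahr and Kcnj2 below it.

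IFN-γ given without IL-4, against untreated cells, is a comparison of 6 libraries that shares none with the one above, and 2 of its untreated libraries are those rich in Rn45s. The estimate of spread per gene is common to both comparisons. It called 2216 genes higher (19.5%) and 2158 lower (19.0%). Of the 1883 genes that rose in the presence of IL-4 1573 also rose without it (83.5%, and 71.0% of the 2216), and 3 fell. Of the 1894 that fell, 1313 also fell without IL-4 (69.3%, and 60.8% of the 2158), and 13 rose. Of 580 genes raised by IFN-γ alone by a log2 change of at least 1, 548 (94.5%) were higher with both cytokines and 2, Rasgrp1 and Eps8, were lower. The call of Eps8 was lost in 5 of 18 alternatives, among them without replicate 1 (-0.38, limma adjusted p = 0.11), without the second library of both cytokines (-0.25, 0.10) and without the third IL-4 library (-0.31, 0.073). Of 250 lowered, 218 (87.2%) were lower, when 16.5% of all genes tested were higher and 16.6% lower.

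A test of the difference between the changes with and without IL-4 called 131 genes with a higher value (1.15%) and 198 with a lower value (1.74%) in the presence of IL-4, 2.89% in all. The change with IL-4 has a control of 2 h, whereas the change without it is against untreated cells at 0 h. The difference can therefore also hold effects of 2 h in culture, whose part was not tested. With untreated replicate 1 as the only control the counts were 67 and 124, and without the replicate block 11 and 31. Leaving out replicate 1 gave 45 and 68, replicate 2 200 and 264, and replicate 3 8 and 36. Lower values were led by genes that each cytokine raised alone. Socs1 measured 1.31, 0.845 and 0.52 rescaled CPM untreated, 119, 74.6 and 64.8 with IL-4, 107, 92.3 and 86.9 with IFN-γ and 138, 156 and 147 with both (difference -4.88 ± 0.27 SE, limma adjusted p = 2.39e-08). The libraries with both cytokines lay above all others, by far less than the sum of the separate log2 changes. Cish (difference -3.41 ± 0.29 SE), Il4ra (-1.90 ± 0.25), Ch25h (-3.47 ± 0.41), Ccl7 (-2.52 ± 0.35), Fchsd2 (-2.33 ± 0.20) and Cd274 (-1.78 ± 0.31) were called in the same direction. For Fchsd2 the means were 57.2 rescaled CPM untreated, 361 with IL-4 and 432 with both. Irf1 was also called (-0.81 ± 0.15 SE), its untreated libraries measuring 122, 77.8 and 82.8 and those with IFN-γ alone 2339, 1315 and 1940.1. None of Cish, Il4ra or Socs1 lost the call in 22 alternatives, whereas Irf1 lost it in 4, Cd274 in 3 and Ccl7, Ch25h and Fchsd2 in 1 each.

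In a second group of genes IFN-γ raised the level without IL-4 and lowered it with IL-4. Rasgrp1 measured 0.218, 0.121 and 0.123 untreated, 3.39, 2.68 and 2.86 with IFN-γ, 39.9, 40.2 and 53.1 with IL-4 and 14.4, 12.1 and 22.5 with both (-3.21 ± 0.41 SE). For both genes the order of the groups was untreated, IFN-γ, both and IL-4, without overlap. Socs2 measured 0.654, 0.302 and 0.492 untreated and 2.25, 1.38 and 1.39 with IFN-γ, against the IL-4 values given above (difference -2.45 ± 0.19 SE). Klf4 changed by 0.48 ± 0.22 SE without IL-4, which was not called, and by -1.82 ± 0.22 SE with it (difference -2.31 ± 0.32 SE). Leaving out replicate 3 ended that last call (difference -2.49, limma adjusted p = 0.081). Higher values in the presence of IL-4 included genes that IFN-γ alone lowered. Thbs1, the matrix protein thrombospondin 1, measured 356, 195 and 252 untreated and 129, 69.4 and 67.8 with IFN-γ alone, against 57.7, 49.8 and 39.3 with IL-4 and 71.1, 50.3 and 37.4 with both (difference 1.68 ± 0.23 SE). Nol4l (1.56 ± 0.19 SE) fell in both settings, and Atf3 (1.60 ± 0.21 SE) rose in both. The difference of Thbs1 was lost without the replicate block (limma adjusted p = 0.27). Cpeb2, an RNA-binding protein, differed by 2.12 ± 0.29 SE and Sik1, a kinase, by 2.32 ± 0.26 SE. Without replicate 3 the differences of Atf3 (1.53, limma adjusted p = 0.069), Cpeb2 (2.06, 0.081) and Sik1 (2.07, 0.071) were not called.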

How the data were processed

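Poly(A) RNA of 21 macrophage libraries was read from 1 deposited table of 24421 genes. Per the submitters' processing notes, the tools were TopHat2 2.1.0, HTSeq and edgeR on mm10 (GRCm38); whether reads were counted by strand is not given in the sources used here. The deposited values are CPM (read counts scaled to a common library total), and 100% of them were whole multiples of 1 read within 0.01 read, so reads were recovered for count tests. Libraries held 28920801 to 80028327 reads. Each library was rescaled by its median ratio over 11323 genes. The main test was limma 3.58.1 (R 4.3.3) on log2(rescaled CPM + 1), a two-sided moderated test with a trend, over all 21 libraries with 1 mean per group and the replicate number as a block, adjusted by Benjamini-Hochberg over the 11380 genes with at least 1 CPM in 3 libraries. A call needed an adjusted p under 0.05. The block follows the replicate numbers in the labels: deviations from group means correlated at 0.540 to 0.951 between same-numbered libraries (63 pairs) and at -0.859 to 0.369 between others (126 pairs). Alternatives were edgeR 4.0.16 and DESeq2 1.42.0 on recovered reads, deposited scaling, no block, a pseudocount of 0.25, no filter, fewer libraries and each replicate left out. The fit was also tested on simulated data. Coordinates are those of GENCODE vM21 on GRCm38, matched by symbol. Named genes were a fixed list of regulators, the 20 largest called changes in each direction with a mean of at least 5 rescaled CPM and no overlap, and, from every gene list, at most 4 called and 2 uncalled genes. They also included up to 8 called members per direction of each cytokine-response set and the 10 largest differences in each direction of each difference tested. Jak1, Stat2, Stat4 and other list members outside that rule are given by call only. The gene lists and named genes were chosen with earlier results of these data known, and a list is described by its counts beside all genes tested. The other 24 libraries of the series were not analysed here. A few genes that met these rules are not reported here.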

Additional observations from a re-analysis of the deposited data

Results flagged for a closer look

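The change caused by adding IFN-γ to IL-4 differed between 4 h and 2 h for 29 of the genes named by rule, each by a limma test of the difference over all genes (values are 4 h minus 2 h on the log2 scale). Among regulators and interferon genes the difference was 3.08 for Gbp4, 2.11 for Ciita, 1.61 for Nos2, 1.401 for Socs1, 1.32 for Cxcl9, 1.05 for Irf8, 0.98 for Cd274, 0.70 for Irf4, 0.69 for Ifngr2, -0.46 for Ifngr1 and -3.21 for Retnla. The other genes with a larger value at 4 h were Clic5 (3.67), Il12rb1 (3.54), Ptgs2 (3.11), Upp1 (3.05), Cnn3 (2.75), Edn1 (2.74), Plau (2.67), Slco3a1 (2.63) and Otud1 (2.59). Those with a lower value were Nav2 (-2.22), Slco2b1 (-2.19), Scn3a (-2.02), Kcnj2 (-1.96), Ahr (-1.95), Abcd2 (-1.93), Bmf (-1.78), Tcp11l2 (-1.77) and Tbc1d4 (-1.75). The calls of Cxcl9 (18 of 22 alternatives), Irf4 (17) and Cd274 (11) were the ones lost most often.

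The effect of IFN-γ at 2 h differed between cells with and without IL-4 for 25 named genes, again by a test of the difference (with IL-4 minus without). The change without IL-4 is against untreated cells at 0 h, so it also spans 2 h in culture. Negative values were those of Socs1 (-4.88), Ch25h (-3.47), Cish (-3.41), Rasgrp1 (-3.21), Ccl2 (-2.98), Ccl7 (-2.52), Socs2 (-2.45), Fchsd2 (-2.33), Klf4 (-2.31), Pxdc1 (-2.04), Il4ra (-1.90), Cd274 (-1.78), Retnla (-1.24), Irf1 (-0.81) and Jak2 (-0.72). Positive values were those of Sik1 (2.32), Cpeb2 (2.12), Melk (2.05), Lhfpl2 (1.86), Cebpa (1.71), Thbs1 (1.68), Dusp6 (1.67), Atf3 (1.60), Lbh (1.60) and Nol4l (1.56). Melk lost the call in 14 of 22 alternatives. Retnla was at 0 reads without IL-4, so its value carries no fold.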

How the results depend on the processing

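No named change or difference that passed the test, in the main analysis or in an alternative, changed sign between them, while some changes near 0 that passed in neither did. The tests edgeR (2021 genes higher, 1779 lower) and DESeq2 (1977 and 1977) on recovered reads gave counts near the main 1883 and 1894, sharing 1880 and 1762, and 1870 and 1874, of the main calls. The replicate block, the scaling and leaving out a replicate moved the counts by over 1.5 times. Without the block 997 genes were higher and 677 lower, with deposited CPM 924 and 977, and with deposited CPM and no untreated libraries, an alternative chosen after seeing the data, 1472 and 2848. For the 4 h minus 2 h difference the counts were 223 and 107 without the replicate block and 282 and 244 with deposited CPM. For the difference with and without IL-4 they were 11 and 31 without the block, 32 and 294 with deposited CPM, and 67 and 124 with untreated replicate 1 as the only control. Each setting also chose the sets anew, so their sizes differ. Genes raised by IL-4 were higher and lower in 47 and 77 of 370 cases without the block. With deposited CPM there were 135 and 234 of 1057, and with a minimum log2 change of 2 there were 30 and 51 of 111. Those lowered by IL-4 gave 50 and 49 of 363, 32 and 37 of 167, and 10 and 17 of 51 in that order. Of 532 genes raised by IFN-γ alone 1 was lower without the block. With the minimum of 2, 170 of 174 were higher and 0 lower. Of those it lowered 0 were higher in all 3 settings. Lower were 149 of 226 without the block, 122 of 143 with deposited CPM and 28 of 37 with the minimum of 2. Leaving out replicate 1, 2 or 3 or a single library gave 1157 to 2018 higher and 886 to 1813 lower, 368 to 1308 and 195 to 1173 for the time difference, and 8 to 200 and 36 to 264 for the difference by IL-4. Leaving out replicate 1, 2 or 3, the sets gave 66 to 103 and 115 to 163 (raised by IL-4), 71 to 120 and 64 to 124 (lowered by IL-4), 511 to 587 and 1 to 3 (raised by IFN-γ) and 0 to 1 and 175 to 235 (lowered by IFN-γ). These sets held 393 to 414, 415 to 458, 559 to 615 and 229 to 258 genes in that order. Of 211 named genes 144 were called in the main analysis. Of these 144, 33 lost the call without the block, 20 without replicate 3, 19 without replicate 1 and 16 with deposited CPM. Without the block 12 of 29 time differences and 15 of 25 differences by IL-4 were lost, without replicate 3 12 of the latter, and without replicate 1 5. The cause was not tested. Genes of a few reads, such as Selp, Nos2 and Retnla, are limited by depth.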
